A study of Mus musculus with 10 samples.

Results

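The 10 genes described here are the chemokines Cxcl1, Cxcl2, Ccl2 and Ccl7, the cytokines Il6, Il7 and Gdf15, the acute-phase genes Lcn2 and Lbp, and the signaling inhibitor Socs3. They are 10 of 42612 genes that the plate count tables share and 10 of 32285 genes in the droplet matrices. They were chosen on their levels after Ang2 antibody in earlier readings of the same droplet libraries, so the antibody values below are a description and carry no test. The plate values were tested across all genes.

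Cxcl1 and Cxcl2 are ligands of the neutrophil receptor Cxcr2, and Ccl2 and Ccl7 are ligands of the monocyte receptor Ccr2. Il6 signals through gp130 and Stat3, and Socs3 is a target of Stat3 that inhibits the same receptor. Il7 is a survival factor for lymphocytes that lymphatic endothelial cells (LECs) are known to produce. Lcn2 (lipocalin 2) binds bacterial siderophores, Lbp binds lipopolysaccharide and hands it to Cd14, and Gdf15 is a stress-induced cytokine of the TGF-beta family. In endothelium, NF-kB activates many of these genes, and Ang2 (Angpt2), a ligand of the Tie2 (Tek)-Tie1 receptor complex, is known as a modulator of the endothelial response to inflammatory signals.

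All cells came from mouse ear skin. For the plates, LECs sorted as CD31+ PDPN+ CD45- CD11b- Ter119- were sequenced by Smart-seq in 8 plates, 2 per genotype. One strain gave Tie1 fl/fl controls and Tie1 iΔLEC deletion, and another gave controls with both genes floxed (Tie1 Tie2 fl/fl) and deletion of both (Tie1 Tie2 iΔLEC). The iΔLEC pups carried Prox1-CreERT2, which deletes the floxed alleles in Prox1-expressing cells, and the fl/fl pups had no Cre. Cre-negative controls and deleted pups alike received 62.5 μg 4-hydroxytamoxifen on P1 to P5, and the study analysed them on P28. For the droplets, CD31-sorted cells of wild-type (WT) C57Bl/6j pups given 20 mg/kg Ang2-blocking antibody (Ang2 Ab) or mouse IgG1 every 3 days from P16 to P21 were run as 1 10X library per treatment. The number of mice behind each plate or library is not given in the sources used here, so p-values measure the spread between plates only.

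Some labels and values set limits. Both droplet libraries are labelled male, but each held cells with Xist and no Y-linked UMI (unique molecular identifier, 1 per captured transcript) beside cells with a Y-linked and no Xist UMI. The latter made up 35.1% of LECs and 27.8% of blood endothelial cells (BECs) after IgG and 50.4% and 44.5% after Ang2 Ab. The Ang2 Ab library also has the word control in its title, and its group was taken from its treatment label. Of the plates, both replicates 1 of the Tie1 strain were labelled female and the others male, and Xist separated them that way, at 434 and 462 CPM (counts scaled to the same total in every library) against at most 1.42 CPM. Replicate, sex and table layout therefore cannot be told apart in that strain. LEC wells numbered 306 to 365 per plate with 67356138 to 104924671 reads per plate. Their LEC marker sum was 10276 to 12605 CPM, with 9 of 9 markers above 0 in every plate. After filtering, the droplets held 3438 IgG and 2963 Ang2 Ab cells, at medians of 9908.5 and 7942 UMIs, and 5 barcodes occurred in both libraries. These cells included 1263 and 720 LECs and 1271 and 1307 BECs.

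Deletion was visible in the targeted genes. Tie1 read 2207 and 2865 CPM in Tie1 fl/fl plates and 684 and 653 CPM in Tie1 iΔLEC plates, a log2 fold change of -1.92 ± 0.25 (SE). It read 2758 and 2544 CPM in Tie1 Tie2 fl/fl and 746 and 459 CPM in Tie1 Tie2 iΔLEC plates. Tek read 314 and 287 CPM in Tie1 Tie2 fl/fl and 32.2 and 53.1 CPM in Tie1 Tie2 iΔLEC plates. With Tie1 and Tie2 deletion, Tie1 fell by 2.14 ± 0.26 and Tek by 2.81 ± 0.33 on the log2 scale (edgeR quasi-likelihood adjusted p = 0.0074 and 0.0069). The Tie1 change in the Tie1 strain had an edgeR adjusted p of 0.26.

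Cxcl1 (chr5:90891241-90893115) and Cxcl2 (chr5:90903871-90905938) lie 10755 bases apart on the plus strand, and Ccl2 (chr11:82035571-82037453) and Ccl7 (chr11:82045712-82047525) lie 8258 bases apart, also on the plus strand (GRCm38). Ccl2 overlaps the minus-strand gene Gm17268 and Il7 overlaps the antisense gene Gm16685. The counting is not stated to use strand, so reads of these 2 pairs cannot be told apart in the plates.

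RefSeq promoters (GRCm38.p6) were found for 6 members: Cxcl1, Cxcl2, Il6, Lcn2, Gdf15 and Socs3. The last 130 bases before the start are shown for the 3 members whose promoter held a match to the kB motif, with the match in capitals. These 3 read at or below 0.5 times their IgG level in LECs after Ang2 Ab. So did Gdf15, whose 2 promoters held no kB match. The members were chosen on that contrast and 6 had a promoter to search, so nothing is read from this overlap. All are on the plus strand, at chr5:90891115-90891244, chr5:90903769-90903898 and chr5:30012984-30013113.
Cxcl1: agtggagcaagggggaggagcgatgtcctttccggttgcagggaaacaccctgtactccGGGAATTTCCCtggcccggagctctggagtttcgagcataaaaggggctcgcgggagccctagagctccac
Cxcl2: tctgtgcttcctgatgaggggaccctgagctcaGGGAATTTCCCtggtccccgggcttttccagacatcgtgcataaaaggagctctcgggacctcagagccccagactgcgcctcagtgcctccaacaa
Il6: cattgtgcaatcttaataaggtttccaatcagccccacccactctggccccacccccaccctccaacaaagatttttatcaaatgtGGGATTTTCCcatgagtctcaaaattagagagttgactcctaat
The same letters stand in capitals in Cxcl1 and Cxcl2, where 2 overlapping matches from -71 to -61 and from -97 to -87 form each run. The Il6 match lies at -44 to -35. Both strands of the 250 bases before the start were searched, and 7.25% of 32851 promoters held the kB motif. A STAT match (TTCNNNGAA, 7.02% of promoters) stood in Socs3 as TTCTTAGAA at -154 to -146. An AP-1 match (TGANTCA, 6.75%) stood in Il6, and a C/EBP match (TTGNGNAA, 11.7%) stood in Cxcl2, Il6 and Lcn2. Neither of the 2 Gdf15 promoters held any of the 4 motifs. These are letter matches and say nothing about binding.

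After IgG, the members split into genes that most LECs carried and genes that a few cells carried. Lbp was found in 93.1% of LECs (95% binomial interval, 91.6% to 94.5%), Lcn2 in 63.1% and Il7 in 62.1%, against 7.82%, 4.47% and 2.23% of mural-like cells at median depths of 12020 UMIs in LECs and 11567 in mural-like cells. The shares of these 3 genes were higher in 39 keratinocyte-like cells (15.4%, 12.8% and 15.4%) and 47 fibroblast-like cells (53.2%, 10.6% and 17.0%) than in mural-like cells. Summed LEC levels were 711 CPM for Lbp, 340 for Lcn2 and 115 for Il7, and BEC levels were 80.2, 16.2 and 3.38 CPM. The BEC shares of Lcn2 (5.35%) and Il7 (2.52%) were close to the mural-like shares, so by share the BECs are not told from background. The mural-like levels were 3.39 CPM for Lcn2 and 1.51 CPM for Il7, below those of BECs. Lbp reached 20.8% of BECs, and its BEC transcripts lay in the venous-like clusters D11 (207 CPM) and D12 (284 CPM) more than in the capillary-like cluster D0 (17.8 CPM). Fibroblast-like cells, at a median of 18853 UMIs, also read 187 CPM for Lbp, found in 25 of 47 cells. Their Lcn2 level was 221 CPM, but 5 of the 47 cells carried it and 1 cell held 175 of the 209 UMIs, and after Ang2 Ab they read 6.40 CPM.

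Cxcl1, Cxcl2, Ccl2, Ccl7 and Il6 were carried by few LECs after IgG, and the top cells held most of the transcripts. Cxcl1 was found in 10.3% of LECs, Ccl2 in 9.26%, Ccl7 in 4.35%, Il6 in 3.33% and Cxcl2 in 1.82%, and the 13 LECs highest for each gene held 66.5%, 78.7%, 72.7%, 68.5% and 94.8% of its LEC UMIs. A single LEC held 341 of 1362 Ccl2 UMIs. In 39 keratinocyte-like cells, at a median of 10226 UMIs, the shares were 10.3% for Cxcl1 and 2.56% for Ccl2 and Il6. The Cxcl1 and Il6 shares of LECs did not stand above that level at this depth. Of the 30 Cxcl1 UMIs in these few cells, 20 lay in 1 cell, so they are a rough guide to background. Thinned to 5000 UMIs per cell, 6.04% of IgG LECs carried Cxcl1 and 5.96% carried Ccl2. Counting intervals cover counting error only and not the spread between such cells.

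In BECs after IgG, Cxcl1 (22% of cells, 132 CPM) and Il6 (12.1%, 52.9 CPM) read higher than in LECs (43.9 and 5.52 CPM). Il6 and Cxcl1 were highest in D12, a venous-like cluster led by the adhesion genes Sele and Selp, at 223 and 331 CPM. Outside the endothelium, mural-like cluster D9 read 566 CPM for Cxcl1 and 224 CPM for Ccl2. Ccl7 had 4 UMIs in all IgG BECs and 282 in LECs. Socs3 was found in 52.1% of LECs (281 CPM), 58.6% of BECs (447 CPM) and 63.1% of mural-like cells. The Gdf15 share of BECs (4.80%) was close to that of keratinocyte-like cells (5.13%, 2 of 39 cells). That share has a wide interval (0.63% to 17.3%), so whether Gdf15 in BECs stands above background is not decided here. The mural-like share was 20.7%.

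Gdf15 differed between LEC clusters, also between those of the same name. It read 1667 CPM in valve-like cluster D15, 678 in collector-like D7, 437 and 74.7 in the capillary-like clusters D2 and D1, and 32.0 in the other valve-like cluster, D10. Lcn2 was highest in collector-like D7 at 675 CPM and lowest among LECs in valve-like D10 at 7.11 CPM. The heat map of members by cluster shows Il7 and Lbp in each LEC cluster and Cxcl1 and Socs3 in blood endothelial, mural-like and fibroblast-like clusters.

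**Figure D1:**
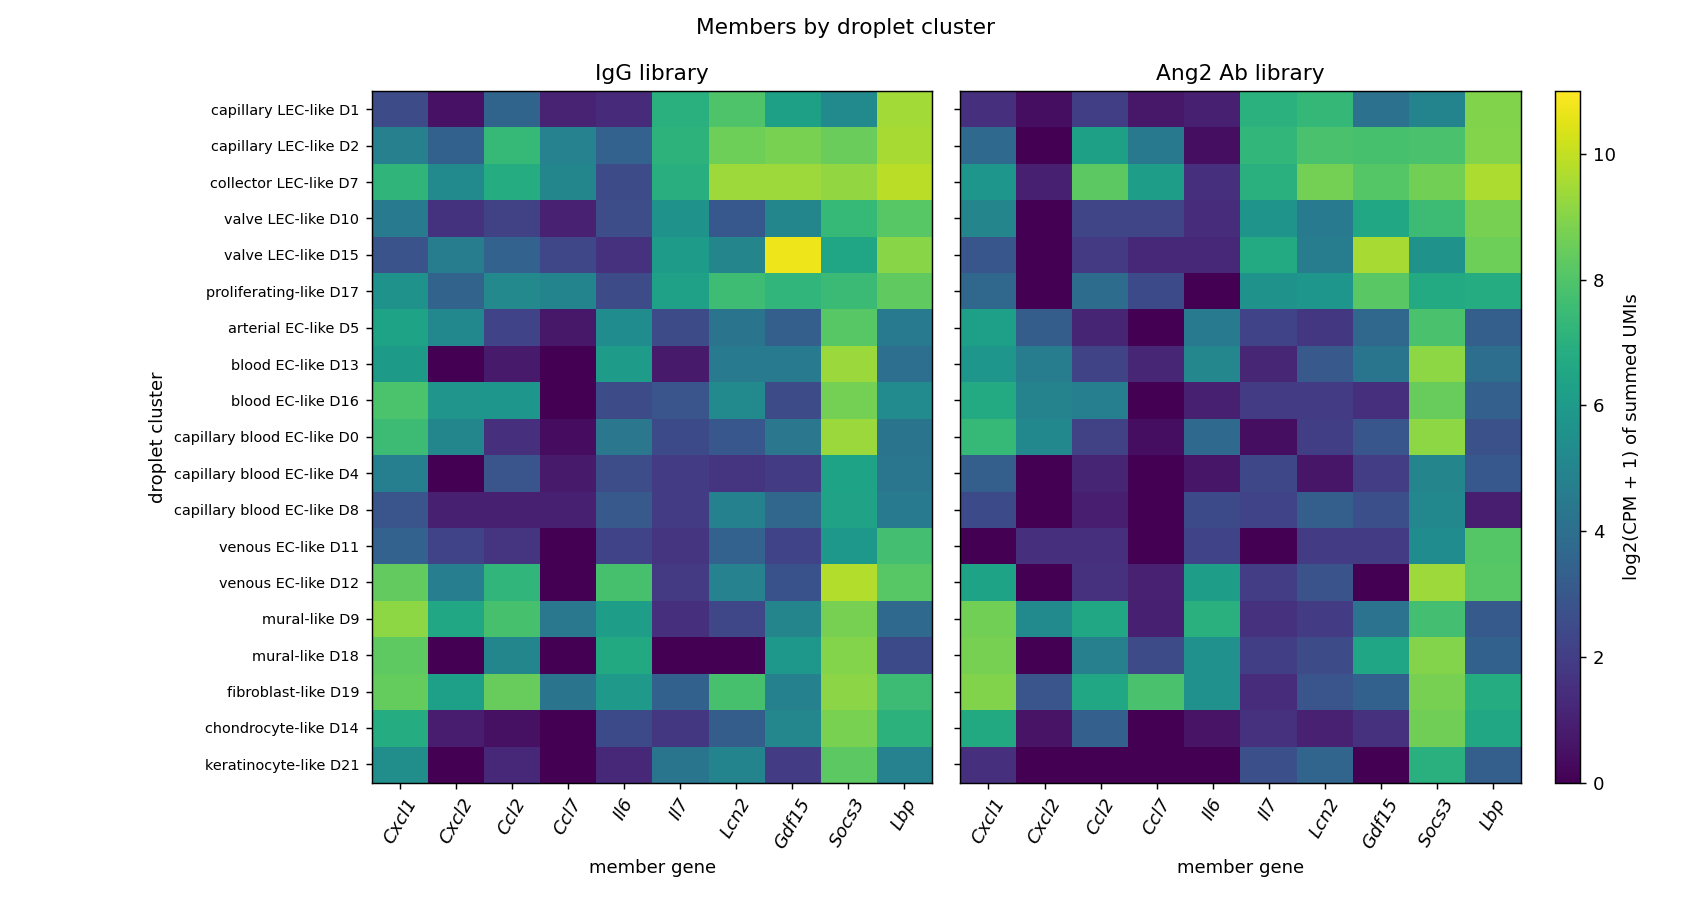
Levels of the 10 members (columns) in the named LEC, proliferating, blood endothelial, mural, fibroblast, chondrocyte and keratinocyte clusters of the droplets (rows), in the IgG (left) and Ang2 Ab (right) library, as log2(CPM + 1) of summed UMIs. Lbp is high in the LEC-like rows, Gdf15 peaks at 1667 CPM in valve-like D15, and Cxcl1 peaks at 566 CPM in mural-like D9 after IgG.

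Some members shared cells. Ccl7 was found in 27.4% of IgG LECs with a Ccl2 UMI and in 2.01% of those without, and in 28.2% and 1.76% after Ang2 Ab. Cxcl2 was found in 11.5% of IgG LECs with Cxcl1 and 0.706% of those without. Carrier cells were deeper, at medians of 16203 against 11686.5 UMIs for Ccl2 and 15104.5 against 11745 UMIs for Cxcl1 in IgG LECs, so depth moved with both shares and its part was not tested. In the plates the same pairs read 14.4% against 2.50% for Ccl7 by Ccl2, and 2.54% against 0.274% for Cxcl2 by Cxcl1. In each of these, carriers of one gene of a chromosomal pair held the other in a larger share.

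After Ang2 Ab, 4 of the 10 members were at or below 0.5 times their IgG level in LECs, where 0.711% of 10545 genes with at least 100 UMIs were. The members were selected on this contrast, so nothing is read from these shares. These were Cxcl2, Il6, Cxcl1 and Gdf15. Cxcl2 had 212 and 2 UMIs, a CPM ratio of 0.017 (95% counting interval, 0.0021 to 0.062). Il6 read 5.52 and 0.976 CPM (ratio 0.18), Cxcl1 43.9 and 15.5 CPM (0.35, 0.29 to 0.42), and Gdf15 414 and 182 CPM (0.44, 0.42 to 0.46). Lcn2 stood just outside the limit at 340 and 179 CPM (0.53, 0.50 to 0.56), followed by Socs3 at 281 and 157 CPM (0.56). Lbp read 711 and 509 CPM (0.72), Ccl2 81.8 and 59.8 CPM (0.73), Ccl7 16.9 and 15.4 CPM (0.91) and Il7 115 and 124 CPM (1.07). The median of all genes was 0.997. No member was at 2-fold or more, where 0.977% of genes were.

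In BECs, 8 members had at least 100 UMIs and 3 of them were at or below 0.5, where 0.606% of 10403 genes were. Ccl2 read 27.6 and 4.38 CPM (0.16, 0.12 to 0.21), Lcn2 16.2 and 3.69 CPM (0.23) and Il6 52.9 and 16.1 CPM (0.31, 0.26 to 0.36). For Ccl2, 290 of the 351 UMIs after IgG lay in 1 cell, which its interval does not cover. The BEC share of Lcn2 was close to that of mural-like cells, and that of Gdf15 to that of keratinocyte-like cells, as given above. Without the 5% of cells with the highest doublet scores, the Lcn2 ratio was 0.37. The 9 LEC markers summed to 447 CPM in BECs after IgG and 197 CPM after Ang2 Ab. The part of such LEC RNA in the BEC values of Lcn2 was not tested. Gdf15 read 11.3 and 6.27 CPM (0.55), but 0.88 (0.62 to 1.24) without the highest doublet scores and 1.49 (0.80 to 2.87) in cells with a Y-linked and no Xist UMI. Cxcl1 read 132 and 78.8 CPM (0.60), Lbp 80.2 and 55.5 CPM (0.69), Socs3 447 and 331 CPM (0.74) and Cxcl2 19.6 and 15.1 CPM (0.77). No member was at 2-fold or more, where 0.221% of genes were. Il7 (43 and 25 UMIs) and Ccl7 (4 and 3 UMIs) were not counted. Cxcl2 was therefore near 0 in LECs after Ang2 Ab while BECs as a class still held 176 UMIs of it. Within BECs, Cxcl2 had 53 and 2 UMIs in the venous-like clusters and 56 and 14 in the arterial-like cluster. The capillary-like clusters held 107 and 109, and those named only blood EC-like held 33 and 51. A lower Cxcl2 was thus not particular to LECs. Few cells carried Cxcl2 in either class, 23 of 1263 LECs after IgG and 32 of 1307 BECs after Ang2 Ab.

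The shares of carrier cells were lower after Ang2 Ab for Gdf15, Socs3 and Lcn2 in LECs and for Il6 and Socs3 in BECs, as the levels were. In LECs, Gdf15 was found in 27.9% of IgG and 15.4% of Ang2 Ab cells (21.6% and 14% thinned), Socs3 in 52.1% and 40.4% (38.8% and 27.6%), and Lcn2 in 63.1% and 53.8% (51.6% and 41.2%). Il7 was found in 62.1% and 59.9% (38.6% and 41.2%), with overlapping intervals in both forms. In BECs, Il6 was found in 12.1% and 4.13% (9.49% and 2.98% thinned) and Socs3 in 58.6% and 45.9% (61.1% and 46.2%). Thinning to 5000 UMIs kept 1192 of 1263 and 662 of 720 LECs and 980 of 1271 and 973 of 1307 BECs.

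Single cells held much of some of these sums. Of the 551 Ccl2 UMIs in Ang2 Ab LECs, 300 lay in 1 cell, and of the 351 Ccl2 UMIs in IgG BECs, 290 lay in 1 cell. Without the 1% of cells richest in the gene, the LEC ratio of Ccl2 was 0.26 (0.19 to 0.36) in place of 0.73, that of Ccl7 was 0.36 in place of 0.91, and the BEC ratio of Ccl2 was 0.51 (0.19 to 1.26) in place of 0.16. Those of Lcn2, Il7, Lbp and Socs3 in LECs were 0.52, 1.08, 0.71 and 0.51, in place of 0.53, 1.07, 0.72 and 0.56. Cxcl1 and Gdf15 in LECs were at 0.30 (0.21 to 0.42) and 0.34 in this setting. Cxcl2 was left with 11 and 0 UMIs in LECs (interval, 0 to 0.72) and Il6 with 29 and 0 UMIs (0 to 0.24).

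Cxcl1 in LECs, and Cxcl1 and Cxcl2 in BECs, read differently in the 2 sexes of cells. In LECs with Xist and no Y-linked UMI, Cxcl1 read 17.6 and 18.8 CPM after IgG and Ang2 Ab, a ratio of 1.07 (0.79 to 1.43). In LECs with a Y-linked and no Xist UMI it read 72.5 and 5.27 CPM, a ratio of 0.073 (0.047 to 0.11). In BECs the Cxcl1 ratios were 1.32 (1.17 to 1.49) and 0.33 (0.29 to 0.37), and those of Cxcl2 were 1.37 (1.07 to 1.74) and 0.36 (0.23 to 0.55). The Ccl2 ratios in BECs were 1.01 and 0.057, and the IgG cells of the Y-linked set held 308 of the 351 UMIs. Of those 308, 290 lay in 1 cell, so the 0.057 rests on that cell and is not read as a difference between the sexes. Lower Cxcl1, in LECs and BECs, and lower Cxcl2 in BECs were thus seen in cells with a Y-linked UMI and not in cells with Xist. With 1 library per treatment the difference was not tested. Few cells held many of these UMIs: 8 Ang2 Ab LECs held 72.0% of 143 for Cxcl1, and 13 IgG BECs held 82.7% of 249 for Cxcl2. How such cells fall into the 2 sets was not examined. The number of mice is not given, so sex and animal cannot be told apart.

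Other members in LECs read below 1 in both sets, except Il7. Lcn2 ratios were 0.60 and 0.45, Gdf15 0.47 and 0.37, Lbp 0.70 and 0.71, Socs3 0.46 and 0.60 and Il6 0.16 and 0.25 in the Xist and Y-linked sets. Il7 read 1.19 (1.06 to 1.33) and 0.92 (0.82 to 1.02). Ccl2 in LECs was 0.27 and 0.31, both below the 0.73 of all LECs, and these sets held 44 and 201 of the 551 Ccl2 UMIs after Ang2 Ab. Cxcl2 had 43 and 0 UMIs in the Xist set and 100 UMIs and 1 UMI in the Y-linked set, and Ccl7 read 0.31 and 0.61. The ratio plot sets these values side by side.

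**Figure D2:**
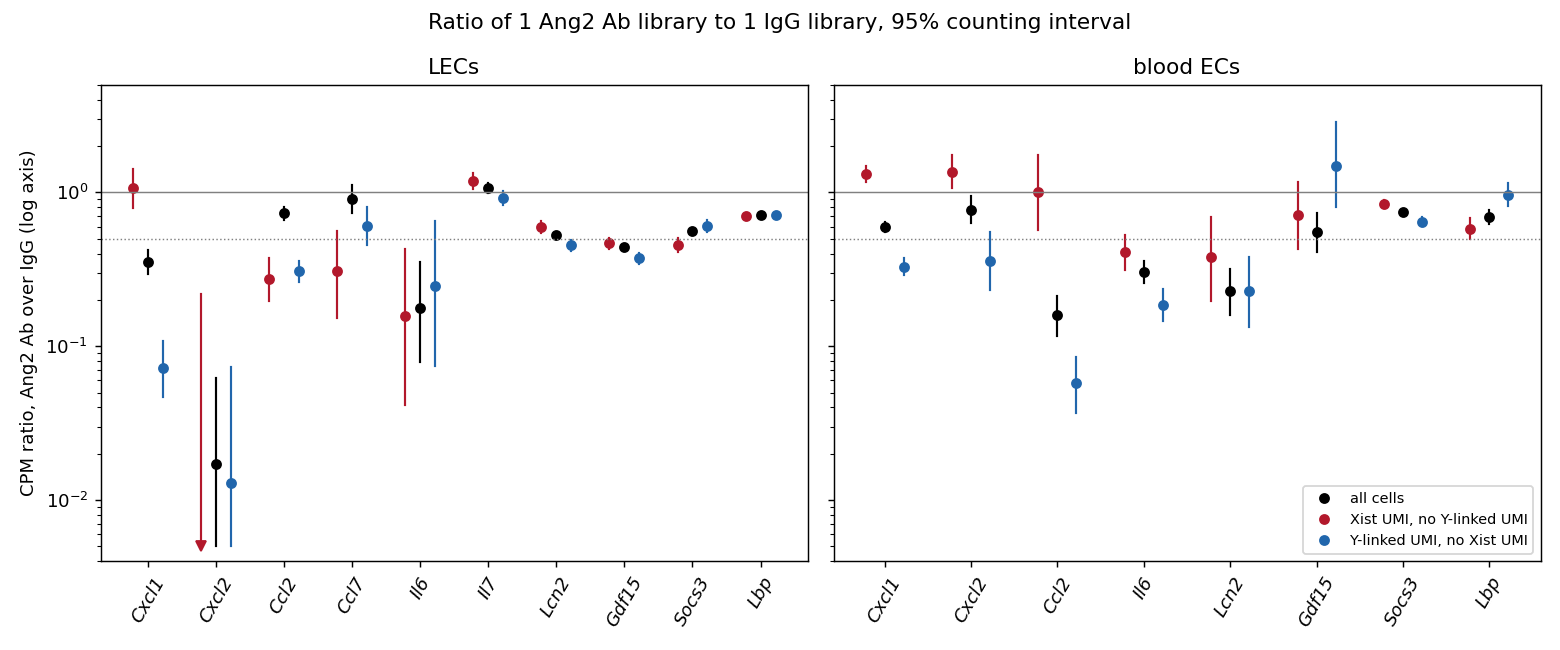
CPM ratio of the Ang2 Ab to the IgG library (log axis) for each member with at least 100 UMIs, in LECs (left) and BECs (right), for all cells (black), cells with Xist and no Y-linked UMI (red) and cells with a Y-linked and no Xist UMI (blue); bars are 95% counting intervals, a triangle is a value of 0, and the solid and dotted lines mark 1 and 0.5. Red and blue sit apart for Cxcl1 in both panels (1.07 and 0.073 in LECs) and together for Lbp in LECs (0.70 and 0.71).

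Within LEC clusters, the ratios ran from below to above 1. In collector-like D7 (281 and 90 cells), Cxcl1 read 145 and 53.2 CPM, Gdf15 678 and 274 CPM and Lcn2 675 and 414 CPM after IgG and Ang2 Ab. In the same cluster Ccl2 read 112 and 298 CPM and Ccl7 31.8 and 69.4 CPM, and 313 of the 551 Ccl2 UMIs lay there, where no other LEC cluster held as many as the 300 of that single cell. In capillary-like D2 (354 and 188 cells), Ccl2 read 162 and 75.1 CPM, Il6 56 UMIs and 1 UMI, and Socs3 361 and 225 CPM. Gdf15 read 1667 and 757 CPM in valve-like D15 and 74.7 and 16.5 CPM in capillary-like D1, but 32.0 and 93.3 CPM in valve-like D10. Lbp was lower in D1, D2, D7 and D15 and read 285 and 428 CPM in D10.

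The makeup of the class also differed. D7, which is richest in Cxcl1, Cxcl2 and Lcn2, was 281 of 1263 LECs after IgG and 90 of 720 after Ang2 Ab, and in summed values fewer cells of a type and less RNA per cell cannot be told apart. With the cluster mix held as in IgG, a setting chosen after seeing the data, the LEC ratios were 0.46 for Cxcl1, 0.023 for Cxcl2, 0.46 for Gdf15, 0.62 for Lcn2, 0.68 for Socs3 and 0.77 for Lbp. Those of Ccl2 and Ccl7 became 1.10 and 1.32. This setting gives D7 more weight after Ang2 Ab, where 1 cell held 300 of its 313 Ccl2 UMIs. For Ccl7, 1 LEC held 52 of the 142 UMIs after Ang2 Ab. Neither ratio is read as a change in these genes. Without D7 the ratio of Cxcl1 was 0.64 and that of Ccl2 was 0.40.

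In BECs, venous-like cluster D12 (128 and 72 cells) held 427 of 673 Il6 and 291 of 351 Ccl2 UMIs after IgG. There Cxcl1 read 331 and 81.6 CPM (0.25), Il6 223 and 71.7 CPM (0.32) and Ccl2 152 and 1.99 CPM, from 291 and 2 UMIs. Of those 291 Ccl2 UMIs, 290 lay in 1 cell, so the Ccl2 values of D12 describe that cell and not the cluster. Capillary-like D0 read 188 and 166 CPM for Cxcl1 (0.88), and arterial-like D5 read 39.3 and 22.8 CPM for Il6 (0.58). Without the venous-like clusters, the BEC ratios were 0.80 for Cxcl1, 0.81 for Ccl2, 0.46 for Il6 and 0.35 for Lbp. For Ccl2 this setting also leaves out the cell with 290 UMIs. With the cluster mix held as in IgG, also chosen after seeing the data, the BEC ratio of Lbp was 0.97 in place of 0.69. The others were 0.58 for Cxcl1, 0.72 for Cxcl2, 0.41 for Il6, 0.25 for Lcn2, 0.58 for Gdf15 and 0.82 for Socs3, and 0.12 for Ccl2, which rests on that cell. In the venous-like clusters together, Lbp read 251 and 277 CPM (1.10), so its lower BEC level was not seen there. Mural-like D9, which is no endothelium, read 566 and 404 CPM for Cxcl1, 224 and 96.7 CPM for Ccl2 and 68.7 and 124 CPM for Il6, so Cxcl1 and Ccl2 read lower there as well and Il6 higher.

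Related pathway lists were read the same way. Of 20 measured NF-kB targets and feedback genes, 17 were below 1 in LECs, with a median ratio of 0.72, and 15 of 21 were below 1 in BECs, at a median of 0.81. The adhesion genes Selp (7.50 and 1.08 CPM, 0.14) and Vcam1 (8.34 and 1.63 CPM, 0.20) were lowest in LECs, and Nfkb1 (1.10) and the adaptor Traf1 (1.48) were highest. In BECs, Selp (281 and 90.9 CPM, 0.32) and Sele (135 and 69.0 CPM, 0.51), which mark the venous-like clusters, were lowest, and Relb (1.10) and Traf1 (1.11) were highest. The 7.50 CPM of Selp in LECs is small beside its 281 CPM in BECs. The part of BEC RNA in the LEC values of Selp and Vcam1 was not tested, so these low levels are not read as a change in LECs. The median of all genes was 0.997 in LECs and 1.01 in BECs.

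Immediate early and dissociation genes, which rise during tissue digestion, had medians of 0.70 in LECs (14 of 17 below 1) and 0.76 in BECs (13 of 17). Egr2 was lowest in both, at 0.44 and 0.43, followed by Hspa1a in LECs (0.53) and Myc in BECs (0.49). Klf6 (1.19 in both) and Hspa1b (1.53 and 1.2) were highest. These genes moved with the members, and their part in the antibody values was not tested. Regulators of inflammatory mRNA decay had medians of 0.89 and 0.90. Zc3h12a (0.45 in LECs, 0.77 in BECs) and Zfp36 (0.75 and 0.71) were lowest, Zc3h12c (1.08 and 1.5) was among the highest, Arid5a (1.25) was highest in LECs, and Elavl1 read 0.99 in BECs.

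IL-6 family and acute-phase genes had medians of 0.98 in LECs and 0.89 in BECs, with 10 of 19 and 16 of 17 below 1. In LECs, Socs1 (0.55) and Il11ra1 (0.60) were lowest and Steap4 (1.31) and Pim1 (1.45) highest. In BECs, Timp1 (0.33) and Lrg1 (490 and 235 CPM, 0.48) were lowest, and Osmr (0.97) and Jak2 (1.01) highest. Integrated stress response genes, many of which share Atf4 with Gdf15 as a regulator, had medians of 0.87 and 0.83. Atf3 was lowest in both (0.57 and 0.65), with Ppp1r15a (0.64) in LECs and Psat1 (0.73) in BECs, while Trib3 (1.11 and 1.13) and Cebpg (1.13 and 1.04) were highest.

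Of other cytokines, Csf3, which encodes the neutrophil growth factor G-CSF, had 245 and 2 UMIs in BECs (0.0089, 0.0011 to 0.033). How many cells held these UMIs was not examined, and the interval does not cover their spread between cells. Tnfsf9 read 0.58, Tnfsf10 1.07 and Clcf1 1.21 in BECs. In LECs, 3 of this list had enough UMIs: Csf1 (0.50), Tnfsf10 (1.12) and Tslp (15.5 and 30.3 CPM, 1.95). Other inflammatory chemokines were measured in BECs alone, at 0.81 for Cxcl10, 0.88 for Cxcl16, 1.14 for Cxcl9 and 1.16 for Cx3cl1. Among receptors and sensors, the LEC ratios were lowest for Myd88 (0.63) and Tnfrsf1a (0.78) and highest for Slc22a17 (1.25), a Lcn2 receptor, and Cd14 (4.14 and 9.11 CPM, 2.20), the partner of Lbp. In BECs, the venous chemokine scavenger Ackr1 (0.44) and Slc22a17 (0.66) were lowest, and Cd14 (1.28) and Tlr4 (1.41) highest.

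The plates asked whether loss of Tie1, or of Tie1 and Tie2, in LECs moves the same genes. Per length of exon, mean levels over the 4 genotypes ran from 297 CPM per kb for Lbp and 79.8 for Lcn2 through 25.6 for Il7, 24.2 for Gdf15, 23.8 for Socs3 and 8.17 for Ccl2 to 2.93 for Ccl7, 0.49 for Cxcl1, 0.10 for Cxcl2 and 0.088 for Il6. The group means of Il7 (20.6 to 31.3 CPM per kb), Gdf15 (11.9 to 36.7) and Socs3 (16.4 to 29.9) overlapped. Of the 10 members, 9 passed the filter on low counts and Cxcl2 did not. With an adjusted p under 0.05 in edgeR's quasi-likelihood test over 19946 genes, 0 of 9 members were called in the Tie1 contrast, where 0% of genes were, 0 in the Tie1 and Tie2 contrast, where 1.15% were, 0 in the average of both, where 0.948% were, and 0 in the difference between them, where 0.13% were. At an unadjusted p under 0.05 the counts were 0 of 9 (4.33% of genes), 4 of 9 (10.6%), 1 of 9 (9.86%) and 1 of 9 (7.36%). By DESeq2, Lcn2 and Ccl2 were called in the Tie1 and Tie2 contrast, where 1017 of 19946 genes were. Lcn2 was also called in the average, where 887 genes were.

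Lcn2 came nearest to a call. Tie1 fl/fl plates read 297 and 317 CPM and Tie1 iΔLEC plates 197 and 151 CPM. Lcn2 was at 190 and 405 CPM in Tie1 Tie2 fl/fl and 40.5 and 78.0 CPM in Tie1 Tie2 iΔLEC. In both strains, both deleted plates lay below both controls. The share of all genes that separate this way was not computed, so nothing is read from this about Lcn2. The log2 fold change was -0.82 ± 0.41 (SE) with Tie1 deletion, with an unadjusted p of 0.080 and an adjusted p of 1 in edgeR, and -2.33 ± 0.43 with Tie1 and Tie2 deletion (edgeR adjusted p = 0.0503). Averaged over both it was -1.57 ± 0.30 (edgeR adjusted p = 0.060). The difference between the deletions was -1.5 ± 0.58 (edgeR unadjusted p = 0.032, adjusted p = 0.62). Plates of other members separated as well. With Tie1 deletion, Cxcl2, Ccl7 and Il6 lay higher in both deleted plates than in both controls. With deletion of both receptors, Il6 and Lbp lay lower and Ccl2 and Ccl7 higher.

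The Lcn2 call in the Tie1 and Tie2 contrast depended on the fit. The edgeR adjusted p was 0.048 with RLE factors and 0.119 with the 4 plates alone, it was 7.86e-06 in DESeq2, and in edgeR it ranged from 0.039 (without Tie1 Tie2 fl/fl replicate 3) to 0.22 when single plates were left out. The highest came without Tie1 Tie2 fl/fl replicate 4, the plate with 405 CPM, where the log2 fold change was -1.68. Without collector-like wells, left out after seeing the data, it was -2.09 with an adjusted p of 0.12.

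Both the wells that carried Lcn2 and the level within clusters were lower. Wells with at least 1 read were 99.7% and 89.9% in Tie1 fl/fl, 97.1% and 51.6% in Tie1 iΔLEC, 80.2% and 99.4% in Tie1 Tie2 fl/fl, and 22.5% and 52.2% in Tie1 Tie2 iΔLEC. Detection also differed between the table layouts, at medians of 5796 to 7004 genes per LEC in one and 3596 to 4962 in the other, and its part in these shares was not tested. Collector-like cluster P2, which held 29.7% of Lcn2 reads, counted 76 and 63 wells in Tie1 Tie2 fl/fl and 10 and 16 in Tie1 Tie2 iΔLEC plates. Within P2 Lcn2 read 368 and 612 CPM in these controls and 39.4 and 141 CPM in the deleted plates. In valve-like P1 it read 114 and 125 CPM against 15.9 and 29.2 CPM, and in capillary-like P6 154 and 461 CPM against 8.36 and 113 CPM. In 8 of 9 LEC clusters with enough wells both deleted plates lay below both controls, and in 8 of 10 with Tie1 deletion. Such counts were not made for all genes, so nothing is read from them. Clusters of the same plates are not independent. With Tie1 and Tie2 deletion the groups overlapped in proliferating-like P8, at 21.8 and 58.3 against 35.3 and 37.5 CPM.

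The groups of Lbp, the other acute-phase member, were separate with deletion of both receptors. It read 1288 and 1840 CPM in Tie1 fl/fl, 1356 and 1699 CPM in Tie1 iΔLEC, 1675 and 1553 CPM in Tie1 Tie2 fl/fl and 1185 and 899 CPM in Tie1 Tie2 iΔLEC. The groups overlapped with Tie1 deletion, at a log2 fold change of -0.03 ± 0.23. With Tie1 and Tie2 deletion it was -0.63 ± 0.23 (edgeR unadjusted p = 0.026, adjusted p = 0.38). Both deleted plates lay below both controls in 9 of 9 LEC clusters, as in capillary-like P6 at 1476 and 1534 against 885 and 854 CPM. These clusters are parts of the same plates and not independent, so the count is no further test of the difference between plates. The share of all genes that separate in this way was not computed, for plates or for clusters. Lbp was found in 96.7% to 100% of LEC wells of every plate.

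**Figure D3:**
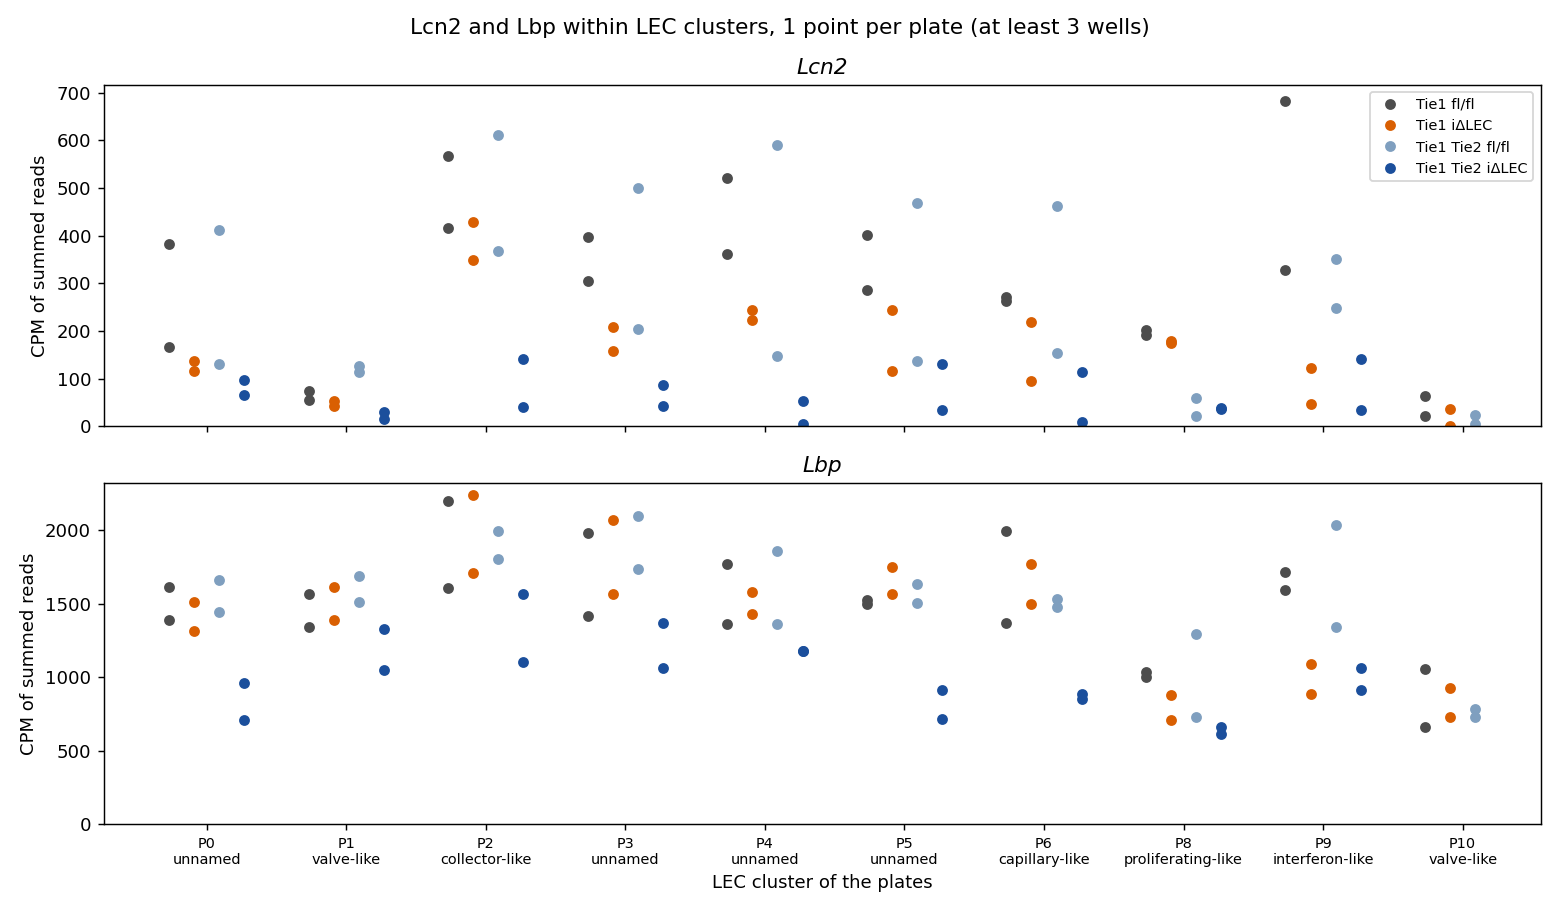
CPM of Lcn2 (top) and Lbp (bottom) in each LEC cluster of the plates (x axis), 1 point per plate with at least 3 wells, coloured by genotype. The Tie1 Tie2 iΔLEC points (dark blue) lie below both Tie1 Tie2 fl/fl points in 8 of 9 clusters for Lcn2 and in 9 of 9 for Lbp. Such counts were not made for all genes. Clusters of the same plates are not independent.

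Ccl2 and Ccl7 read higher with deletion of both receptors, in few wells. Ccl2 read 9.47 and 3.55 CPM in Tie1 fl/fl, 1.60 and 11.3 CPM in Tie1 iΔLEC, 4.17 and 1.09 CPM in Tie1 Tie2 fl/fl and 9.79 and 33.5 CPM in Tie1 Tie2 iΔLEC. Its log2 fold change was -0.02 ± 1.1 with Tie1 deletion and 3.04 ± 1.14 with Tie1 and Tie2 deletion (edgeR adjusted p = 0.39; DESeq2 adjusted p = 0.040). Tie1 Tie2 iΔLEC replicate 2 had 3646 Ccl2 reads from 94 of 356 wells, and 1 well held 723 of them. Ccl7 read 0.71 and 0.082 CPM in Tie1 Tie2 fl/fl and 0.72 and 6.41 CPM in Tie1 Tie2 iΔLEC, at 3.17 ± 1.31 (edgeR adjusted p = 0.44), and the lower deleted plate lay only just above the higher control. With Tie1 deletion Ccl7 had a log2 fold change of 0.40 ± 1.21. Unnamed cluster P5, with Ccl2 among its leading genes, held 31.6% of Ccl2 and 35.8% of Ccl7 reads, and interferon-like P9 held 21.4% of Ccl2.

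Cxcl1, Il6 and Cxcl2 had few reads in the plates. Cxcl1 read 0.44 and 0.46 CPM in Tie1 fl/fl, 0.90 and 0.14 CPM in Tie1 iΔLEC, 4.54 and 0.31 CPM in Tie1 Tie2 fl/fl and 0 and 0.56 CPM in Tie1 Tie2 iΔLEC. The log2 fold changes were 0.22 ± 1.86 and -3.09 ± 2.00 (edgeR adjusted p = 1 and 0.68). The plate at 4.54 CPM also had the highest sum of 7 fibroblast markers, 324 CPM against 74.2 to 182 CPM in the others, and the part of this in its Cxcl1 reads was not tested. Il6 had 0 to 59 reads per plate, most of them in the 2 Tie1 Tie2 fl/fl plates (59 and 51 reads). Its log2 fold changes were 3.43 ± 2.03 and -2.13 ± 1.72 (edgeR adjusted p = 1 and 0.77), and the Tie1 Tie2 iΔLEC plates had 18 reads, all in 1 well, and 1 read. Cxcl2 had 120 reads in 1 well of Tie1 iΔLEC replicate 2 and at most 6 reads in any other plate. Within LEC clusters, both Tie1 Tie2 iΔLEC plates lay below both controls in 7 of 9 clusters for Cxcl1 and in 3 of 9 for Il6, and above them in 0 for either, at these low counts. Tie1 Tie2 iΔLEC replicate 1 had 0 Cxcl1 reads, and replicate 2 had 61, of which 54 lay in 1 well. Nothing is therefore read from these cluster counts. None of the 3 genes had an adjusted p under 0.05 in edgeR, in which Cxcl2 was not tested.

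Il7, Socs3 and Gdf15 had at least 1350 reads in each plate and overlapping groups. For Gdf15, the 4 richest wells held 59.3% and 28.7% of reads in Tie1 Tie2 fl/fl and 61.0% and 62.7% in Tie1 Tie2 iΔLEC plates. On simulated counts, 0% of genes changed by a log2 fold of 1 were recovered in the Tie1 and Tie2 contrast. An overlap is therefore not read as no change. Il7 read 156 and 117, 109 and 124, 201 and 154, and 129 and 170 CPM in the 4 genotypes in the order above, with log2 fold changes of -0.23 ± 0.26 and -0.25 ± 0.26. Socs3 read 52.0 and 88.4, 32.3 and 62.3, 75.2 and 66.8, and 112 and 60.2 CPM, at -0.57 ± 0.43 and 0.28 ± 0.43. Gdf15 read 60.7 and 43.3, 88.4 and 47.4, 16.8 and 57.4, and 25.5 and 18.4 CPM, at 0.38 ± 0.56 and -0.76 ± 0.56. The edgeR adjusted p of each was 0.735 or more. Valve-like cluster P1 held 28.5% of Gdf15 reads, the most of any cluster. Among the droplets after IgG, D2 and D7 held the most Gdf15 UMIs (2424 and 2406), and valve-like D15 held 1661 UMIs at the highest CPM.

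**Figure D4:**
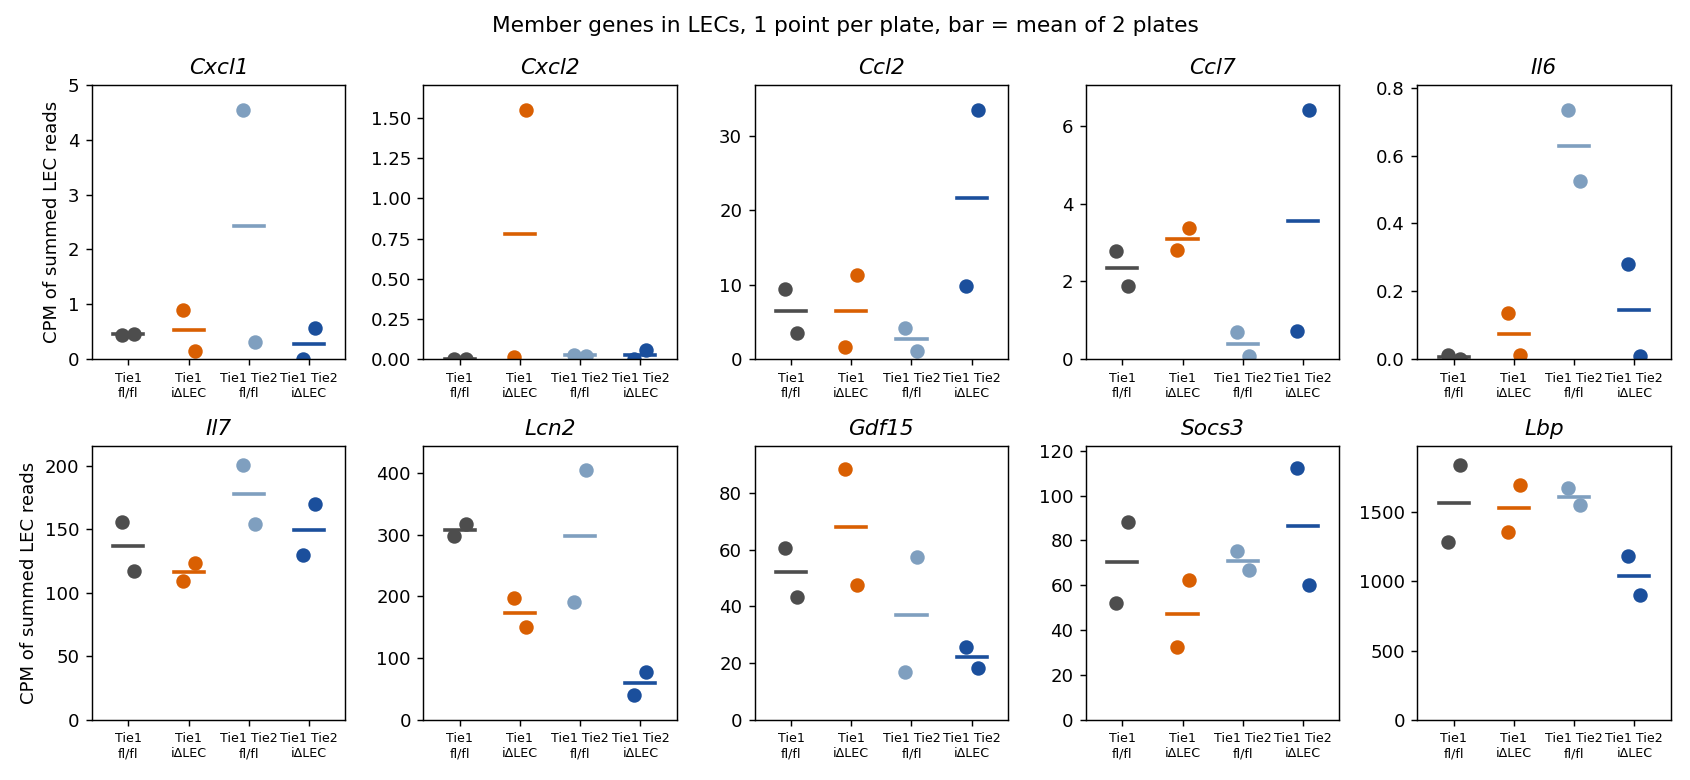
CPM of each member in summed LEC reads (y axis, from 0, own scale per gene), 1 point per plate and a bar at the mean of the 2 plates of each genotype. Lcn2 is lowest in the Tie1 Tie2 iΔLEC plates (40.5 and 78.0 CPM), Ccl2 is highest there (9.79 and 33.5 CPM), and the groups of Il7, Gdf15 and Socs3 overlap.

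Markers of other cells moved with the Tie1 and Tie2 genotype. The 8 mural markers, all above 0 there, summed to 173 and 152 CPM in Tie1 Tie2 iΔLEC and 76 and 27.9 CPM in its controls, and 1 of them, the potassium channel gene Kcnj8, read 151 and 134 CPM against 9.19 and 17.6 CPM. The defining mural marker Rgs5 read 0.030 and 0.076 against 1.23 and 0.15 CPM. The 7 collector markers summed to 2792 and 1992 against 4645 and 4725 CPM. The 12 BEC markers summed to 2654 and 2223 CPM against 1332 and 1557 CPM, with 10 of 12 above 0 in replicate 1. Most of that sum was Plvap (1541 and 1130 against 800.2 and 931 CPM) and Aqp1 (702 and 659 against 229.8 and 264 CPM). Other BEC markers were also higher in both deleted plates. Esm1 read 85.4 and 55.6 against 0.025 and 0.39 CPM, Sox17 84.5 and 39.2 against 0.43 and 5.90, and Cd34 118 and 64.0 against 15.7 and 10.7. Cd93 and Notch4 were higher by less. Emcn and Ly6a were lower in both, and Ly6c1, Rgcc and Flt1 (0 and 13 against 1.26 and 4.47 CPM) overlapped. The part of these marker shifts in the values of Lcn2, Ccl2 or the other members was not tested.

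Among the pathway lists in the plates, 2 of 21 tested IL-6 family and acute-phase genes were called with Tie1 and Tie2 deletion, where 1.15% of all genes were, and both fell, as did 170 of the 230 genes called. Lrg1, an acute-phase glycoprotein, read 569 and 522 CPM in the controls and 41.3 and 40.6 CPM in the deleted plates, a log2 fold change of -3.73 ± 0.26 (edgeR adjusted p = 0.0011). Cish, an inhibitor of cytokine signaling related to Socs3, read 144 and 171 CPM against 51.6 and 32.3 CPM, at -1.91 ± 0.28 (edgeR adjusted p = 0.018). Lrg1 read 478 and 701 CPM in Tie1 fl/fl and 305 and 373 CPM in Tie1 iΔLEC, at -0.80 ± 0.23 (adjusted p = 1), and its 2 changes differed by -2.94 ± 0.34 (edgeR adjusted p = 0.029). The median of the list was -0.50, against 0.0041 for all genes.

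In the other lists edgeR called 0 genes in any contrast. These were 10 other chemokines, 11 other cytokines, 21 NF-kB genes, 18 stress response genes, 15 receptors and sensors, 18 immediate early genes and 9 decay regulators. With Tie1 and Tie2 deletion, 3, 1, 2, 7, 4, 2 and 1 of them had an unadjusted p under 0.05, where 10.6% of all genes did, in mixed directions, and the medians ran from -0.30 to 0.74. The NF-kB list had a median log2 fold change of -0.29 with Tie1 and Tie2 deletion and -0.09 with Tie1 deletion. Ages and methods of the plate and droplet experiments differ, so their values stand side by side with no test.

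Likeness was read across 44 points, each a droplet cluster in 1 library. Il7, Lcn2 and Lbp correlated with each other at Pearson's r of 0.70 to 0.81, and Il7 and Lcn2 were each most like Slc45a3 (0.93 and 0.83) and the LEC gene Mmrn1 (0.93 and 0.83), among 12963 genes. Lbp was most like Fam174b (0.90). Cxcl1 was most like Socs3 (0.83), Socs1 (0.73) and the mRNA decay factor Zfp36 (0.73), and Socs3 was most like Zfp36 (0.93) and the immediate early genes Egr1 and Junb (0.89 each). Ccl2 was most like Glipr2 (0.72) and then Ccl7 (0.68), Il6 was most like Rasl11a (0.78), Gdf15 like Fndc8 (0.76) and Cxcl2 like Ppm1n (0.58). The points share libraries and depth, so these figures are descriptions with no test.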

How the data were processed

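The authors deposited counts: reads per gene and well for 8 Smart-seq plates (duplicates removed, per the column names; TopHat2 2.1.1, SAMtools 0.1.18 and featureCounts on mm10 are listed in the submitters' processing notes) and UMI counts for 2 10X libraries (Cell Ranger 6.0.2 in the matrix header, 2.1.1 in the notes). The members and lists were chosen with earlier results of these data known.

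Wells with at least 1000 detected genes, and droplets with at least 500 genes and at most 10% mitochondrial UMIs, were clustered (scanpy 1.11.5, Leiden resolution 1.0, members left out) and named from listed markers. A name needed at least 3 markers, and for LEC subtypes of the plates at least a 0.5 share of them. Fibroblast-like and keratinocyte-like wells were left out. All other wells of the sorted plates counted as LECs. No LEC marker was required for this, and BECs were not among the types that could be left out. The LEC wells thus include the unnamed clusters P0, P3, P4 and P5 (424, 342, 328 and 296 wells). P4 was shallow, at a median depth of 0.45 of the plate median. Scrublet called 0.58% and 0.068% of droplets, too few to have worked, so none were removed and the highest-scoring 5% were left out as an alternative. LEC reads were summed per plate and fitted in edgeR 4.0.16 (R 4.3.3; TMM, filterByExpr, quasi-likelihood, Benjamini-Hochberg over 19946 genes, all 8 plates in 1 model). On simulated counts, 0% of genes changed by a log2 fold of 1 were recovered in the Tie1 and Tie2 contrast. Of genes changed by a log2 fold of 2 and 3, 31.2% and 48.4% were recovered there. Droplet ratios compare CPM of UMIs summed over 1 library per treatment, with exact conditional binomial intervals, and shares have exact Clopper-Pearson intervals. Both cover counting error only, and PCR reads of the plates are not independent molecules. Plates came as 2 table layouts (gene symbols or Ensembl IDs, 1 of each per genotype), joined over 42612 genes. Plates of the same layout deviated from their group means with correlations of 0.010 to 0.10, so the layouts were not treated as pairs. Named genes were the 10 members, list genes called in a plate contrast, the 2 lowest and 2 highest ratios of each list with at least 100 UMIs, and the 3 genes most like each member.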

Additional observations from a re-analysis of the deposited data

Results flagged for a closer look

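Cxcl1 and Cxcl2 in BECs moved in opposite directions in the 2 sexes of cells. The ratio of Ang2 Ab to IgG was 1.32 for Cxcl1 and 1.37 for Cxcl2 in cells with Xist and no Y-linked UMI, and 0.33 and 0.36 in cells with a Y-linked and no Xist UMI. The difference was not tested, since each treatment has 1 library. Sex and animal cannot be told apart here, and the part of single rich cells in each set was not examined.

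Ccl2 and Ccl7 in the collector-like cluster D7, and Gdf15 and Lbp in the valve-like cluster D10, read higher after Ang2 Ab while most other LEC clusters read lower. The ratios were 2.65 for Ccl2, 2.18 for Ccl7, 2.92 for Gdf15 and 1.5 for Lbp, against 0.46 for Ccl2 and 0.73 for Ccl7 in capillary-like D2. D10, with 7 and 5 Ccl2 UMIs and 2 and 5 Ccl7 UMIs, read 1.12 for Ccl2 and 3.93 for Ccl7, and the differences between clusters were not tested. One cell held 300 of the 313 Ccl2 UMIs of D7 after Ang2 Ab.

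Fibroblast-like wells of the plates, left out of the LEC sums, read Cxcl1 at 10.9 CPM and Il6 at 3.58 CPM as means over plates. The LECs of plates with any read of the gene were at 0.14 to 4.54 and 0.0092 to 0.73 CPM. These wells were shallow, at a median depth of 0.10 of the plate median. They also read Lbp at 1384 CPM, Lcn2 at 206 CPM and Il7 at 105 CPM, which is within the range of the LEC clusters. Their name rests on fibroblast markers, and whether they are LECs with fibroblast RNA was not tested. One plate, Tie1 Tie2 fl/fl replicate 3, carried most of these means, at 65.2 CPM for Cxcl1 and 23.7 CPM for Il6, while the other plates read at most 13.6 and 2.1 CPM.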

How the results depend on the processing

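Counts over all genes moved most with the filter and the tool. Without a filter on low counts, edgeR called 264, 1182, 1082 and 618 genes in the Tie1 contrast, the Tie1 and Tie2 contrast, their average and their difference, and DESeq2 called 178, 1017, 887 and 435, against 0, 230, 189 and 26. Leaving out single plates gave 78 to 217, 54 to 142 and 2 to 17 in the last 3. The lowest came without Tie1 Tie2 fl/fl replicate 3, Tie1 iΔLEC replicate 1, and Tie1 fl/fl replicate 1 or Tie1 Tie2 fl/fl replicate 3. With the table layout as a replicate block, which for the Tie1 strain is also the replicate number and the sex, the difference had 11 calls, and with no cluster removed 17. Without collector-like wells, chosen after seeing the data, the average had 115 and the difference 17. In BECs with a Y-linked and no Xist UMI, 5 members were at or below 0.5, against 3. The share of all genes was not computed in these cells, so nothing is read from this count. The Ccl2 ratio among the 5 rests on 1 cell. With the replicate block the edgeR adjusted p of Lcn2 was 0.028 with Tie1 and Tie2 deletion and 0.038 on average, and without a filter it was a call in these and in the difference (0.021). Ccl2 with Tie1 and Tie2 deletion was a call with no filter (edgeR adjusted p = 0.0023) and in DESeq2.

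Some directions turned, also of changes that were not near 0. Cxcl1 with Tie1 deletion was -0.25 with the block and -0.047 with no cluster removed, Ccl7 with Tie1 deletion -0.55 without collector-like wells, the Il6 average -0.71 with no cluster removed, and the Il7 difference 0.0046 with RLE factors, 0.0047 in DESeq2 and 0.074 without collector-like wells. The Ang2 Ab ratios of Cxcl1 in LECs and Ccl2 in BECs were 1.07 and 1.01 in cells with Xist alone, in place of 0.35 and 0.16. For Ccl2, 1 cell outside that set held 290 of the 351 UMIs of IgG BECs. Leaving out single plates gave log2 fold changes of -1.65 to 1.00 for Cxcl1 with Tie1 deletion, -5.21 to 0.016 (without Tie1 Tie2 fl/fl replicate 3) for its average, -2.03 to 0.86 for Ccl2 with Tie1 deletion, -1.25 to 1.78 for the Il6 average, -0.24 to 0.19 for the Il7 difference, and -0.27 to 0.24 for Lbp with Tie1 deletion. For Gdf15 they were -0.13 to 0.76, -1.38 to 0.39, -0.51 to 0.38 and -1.76 to 0.0018 in the 4 contrasts, the last 3 turning without Tie1 Tie2 fl/fl replicate 4, and for Socs3 -0.28 to 0.66 with Tie1 and Tie2 deletion and -0.43 to 0.075 on average. The causes were not tested. Of 557 alternatives for members' log2 fold changes, 518 kept direction and side of the threshold. No member was called in the main fit, so a side could change only toward a call. Other kinds of result were scored by other rules, so their numbers are not compared with these. Of 198 alternatives for Ang2 Ab ratios, 73 left the main counting interval and 2 turned direction. Of 40 thinned shares of carrier cells, 27 left the main interval, but thinning changes detection by design, so this does not measure robustness. Of 84 alternatives for counts of genes or members, 29 moved. Depth limits Cxcl1, Cxcl2 and Il6 in the plates and the 5 few-cell genes in the droplets. Where 1 plate was left out, its partner was assumed to vary like the other groups.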
